A study of Mus musculus with 8 samples.

Results

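The heat shock chaperones, the proteins that fold and refold other proteins and that cells make in larger amounts under stress, were followed by their mRNA in pre-BII cells of 4 genotypes. 10 genes were listed: Hspa1a, Hspa1b, Hspa8, Hsp90aa1, Hsp90ab1, Hspd1, Hspe1, Hsph1, Dnajb1 and Cdc37. Hspa1b was picked on a measured value, its interaction of the losses of Aiolos and OBF-1, and the other genes as chaperones of the same response. Every probe set annotated to a listed gene was taken, which gave 20 probe sets of 9 genes, out of 22626 probe sets and 12393 named genes; Hsp90ab1 is not analysed here.

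The mice lacked both Aiolos and OBF-1 (double mutant), Aiolos alone, OBF-1 alone or neither (wild type). Aiolos is a zinc finger factor of the Ikaros family, and OBF-1, encoded by Pou2af1, is a B cell coactivator that works with the octamer factors Oct-1 and Oct-2. All groups were labelled strain Bl6 and 7 weeks of age, and no group was heat shocked or otherwise treated. By the study's methods each of the 2 arrays per genotype measured an independent pool of sorted B220+ CD25+ pre-BII cells from 8 mice, while the labels name neither a sort nor a pool and give each mutant sample as marrow of a single mouse. The methods are followed for the names, and the errors and p-values below measure the spread between the samples hybridised, whether pools or mice. The losses are of the whole animal.

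Cells hold the HSP70 system, in which an HSP70 protein binds an unfolded stretch of protein, a J domain protein brings the substrate and starts ATP hydrolysis, and a nucleotide exchange factor releases it. HSP90 acts later, on nearly folded clients such as kinases and steroid receptors, and the HSP60 and HSP10 proteins form a folding chamber in mitochondria. Under stress, heat shock factor 1 forms trimers that bind inverted GAA units in the promoters of these genes. In B lineage cells, kinases of B cell receptor signalling are among the clients of HSP90.

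The letters of such units were looked for in the RefSeq promoters of assembly GRCm38.p6, which run from 250 bases before the gene start to 50 bases after it. 7 of the listed genes had a promoter there, 10 in all, and 6 of these genes held paired units, TTCNNGAA or GAANNTTC, each of which reads the same on both strands; 15.1% of the 32851 promoters of the same length held one. Triple units, in which a paired unit is followed after any 2 bases by a further unit and so overlaps the next paired unit, were in 3 genes, Hspd1, Hspe1 and Hsph1, and in 0.603% of all promoters. The octamer ATGCAAAT, the sequence bound by the partners of OBF-1, searched on both strands, was in 0 of the genes and in 1.74% of all promoters. Hspa8 and Hsp90aa1, which hold calls below, were not among the 7 genes with a promoter. Shown are 4 others: the picked gene Hspa1b, its neighbouring copy Hspa1a, and Hspe1 and Hsph1, which hold calls below. The 250 bases before the start of each are given 5′ to 3′ on the strand of the gene, with paired units in capitals. They lie at chr17:34959239-34959488 (minus strand) for Hspa1b, chr17:34972157-34972406 (minus strand) for Hspa1a, chr1:55087898-55088147 (plus strand) for Hspe1 and chr5:149636337-149636586 (minus strand) for Hsph1.
Hspa1b: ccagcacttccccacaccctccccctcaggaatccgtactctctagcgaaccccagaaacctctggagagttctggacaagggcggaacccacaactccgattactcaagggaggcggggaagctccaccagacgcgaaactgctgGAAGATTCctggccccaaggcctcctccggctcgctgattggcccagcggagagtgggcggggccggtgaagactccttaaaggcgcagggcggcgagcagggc
Hspa1a: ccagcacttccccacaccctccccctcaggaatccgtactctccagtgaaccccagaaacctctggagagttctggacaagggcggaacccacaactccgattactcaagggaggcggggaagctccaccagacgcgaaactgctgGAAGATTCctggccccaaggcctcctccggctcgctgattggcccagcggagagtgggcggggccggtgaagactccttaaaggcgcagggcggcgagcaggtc
Hspe1: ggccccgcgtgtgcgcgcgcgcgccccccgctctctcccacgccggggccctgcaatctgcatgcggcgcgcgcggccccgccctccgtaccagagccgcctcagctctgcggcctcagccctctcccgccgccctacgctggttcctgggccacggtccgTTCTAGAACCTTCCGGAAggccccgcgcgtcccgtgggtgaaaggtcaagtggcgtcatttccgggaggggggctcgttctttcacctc
Hsph1: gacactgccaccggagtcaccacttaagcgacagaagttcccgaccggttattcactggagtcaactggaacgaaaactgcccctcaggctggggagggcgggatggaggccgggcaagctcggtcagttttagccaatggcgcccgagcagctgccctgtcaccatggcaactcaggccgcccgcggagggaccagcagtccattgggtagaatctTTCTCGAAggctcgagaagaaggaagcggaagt

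Hspa1b and Hspa1a are near-identical neighbours: their promoters differed at 4 of 300 bases (98.7% identical), 3 of them before the gene start, and both held their paired unit 104 to 97 bases before it. In Hspe1 3 paired units overlapped in 1 run 89 to 72 bases before the start. The gene pair Hspe1 and Hspd1 is read in opposite directions, so that the promoter of the second Hspd1 start shared 285 bases with that of Hspe1. Hsph1 held 1 paired unit 33 to 26 bases before its first listed start and its triple unit 36 to 48 bases after that start, which is outside the stretch shown. Read on the minus strand, the Hsph1 gene span given below begins at base 149636498, so this listed start lies inside it. The paired unit and most of the Hsph1 stretch shown fall within that span. A match of letters is a description of the sequence and not a site.

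Before the chaperones were compared, the arrays were checked. Pou2af1 had 170.1 and 273 in double-mutant, 2434 and 2842 in Aiolos single-mutant, 241 and 236 in OBF-1 single-mutant and 2761 and 2678 in wild type cells (intensity units), so the loss of OBF-1 was seen where labelled; Ikzf3, which encodes Aiolos, is not analysed here. The median intensity of an array was 66.8 to 69.4, arrays correlated with an r of 0.9961 to 0.9965 within genotypes and 0.9878 to 0.9946 between them, and the actin 3′ to 5′ ratio was 1.71 to 2.14. Fluidics station 1 washed the 4 arrays that lacked Aiolos and station 2 the other 4, so that station and Aiolos loss cannot be told apart in comparisons across stations. In each station, modules 1 and 2 held the arrays with OBF-1 and modules 3 and 4 those without it. Module and OBF-1 loss thus cannot be told apart either. Of the pre-BII markers 10 of 11 were measured, with Cd79a at 7216 to 7548 in double-mutant, 7079 to 7126 in Aiolos single-mutant, 8353 to 9365 in OBF-1 single-mutant and 7927 to 7944 in wild type cells, and the summed level of the list was 22830 to 23016, 27873 to 29042, 25081 to 25563 and 29562 to 30179 in the same order. The markers moved both ways: in double-mutant cells Vpreb3, Cd79b and Ebf1 were called lower and Il2ra, Rag2 and Blnk higher, in Aiolos single-mutant cells Ebf1 was lower, and in OBF-1 single-mutant cells Vpreb3 and Cd79b were lower and Il2ra higher. Vpreb3, which encodes a protein of the pre-B cell, had 1759 and 1836 in double-mutant, 6035 and 5798 in Aiolos single-mutant, 1108 and 1197 in OBF-1 single-mutant and 5997 and 5822 in wild type cells, and the part of these markers in the chaperone values was not tested. Granulocyte and monocyte markers, which a pre-BII gate should lack, were measured too: their summed level over 12 of 12 genes was 29782 to 30365 in double-mutant, 27427 to 28269 in Aiolos single-mutant, 29471 to 33557 in OBF-1 single-mutant and 24146 to 24295 in wild type cells (S100a8 alone had 5147 and 5589.7 in double-mutant, 5071 and 5499 in Aiolos single-mutant, 5042 and 6211 in OBF-1 single-mutant and 4574 and 4666 in wild type cells). Of these markers 7 were called higher in double-mutant, 0 in Aiolos single-mutant and 4 in OBF-1 single-mutant cells. Of all probe sets 4.29%, 0.831% and 0.946% were called higher in the same order. The part of these markers in the chaperone values was not tested. Plasma cell markers summed to 1757 to 1851 in double-mutant, 1297 to 1452 in Aiolos single-mutant, 1582 to 1675 in OBF-1 single-mutant and 1261 to 1279 in wild type cells. The markers did not move together. In the same order, the mean was 797, 429, 725 and 405 for Sdc1, and 751, 640, 657 and 669 for Xbp1. It was 179, 229, 154 and 110.5 for Jchain, 55.3, 53.4, 68.3 and 63.3 for Prdm1, and 21.6, 24.2, 23.6 and 22.1 for Tnfrsf17. In RNA of many cells, fewer cells of a type and less RNA per cell cannot be told apart.

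Hspa1b, the stress-inducible HSP70, had its lowest mean in OBF-1 single-mutant and its highest mean in double-mutant cells on each of its probe sets. The probe set with the highest signal, 1427127_x_at, had 88.9 and 76.7 in double-mutant, 49.2 and 78.0 in Aiolos single-mutant, 38.0 and 35.1 in OBF-1 single-mutant and 63.4 and 60.8 in wild type pre-BII cells. Both OBF-1 single-mutant arrays lay below all others, both wild type arrays fell inside the wide range of the Aiolos single-mutant pair, and the upper Aiolos single-mutant array overlapped the double-mutant pair. On 1452318_a_at the intensities were 58.4 and 51.8 in double-mutant, 32.6 and 52.0 in Aiolos single-mutant, 27.6 and 35.0 in OBF-1 single-mutant and 38.0 and 43.8 in wild type cells. The Aiolos single-mutant pair overlapped both the OBF-1 single-mutant and the double-mutant pair on this probe set. On 1427126_at the intensities were 45.3 and 41.1 in double-mutant, 24.7 and 33.8 in Aiolos single-mutant, 19.7 and 21.4 in OBF-1 single-mutant and 32.8 and 35.0 in wild type cells. Here the 2 double-mutant arrays were above every other array and the 2 OBF-1 single-mutant arrays below every other one. The gene lies at chr17:34956429-34959238 and encodes a protein that binds exposed hydrophobic stretches of damaged proteins.

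**Figure D1:**
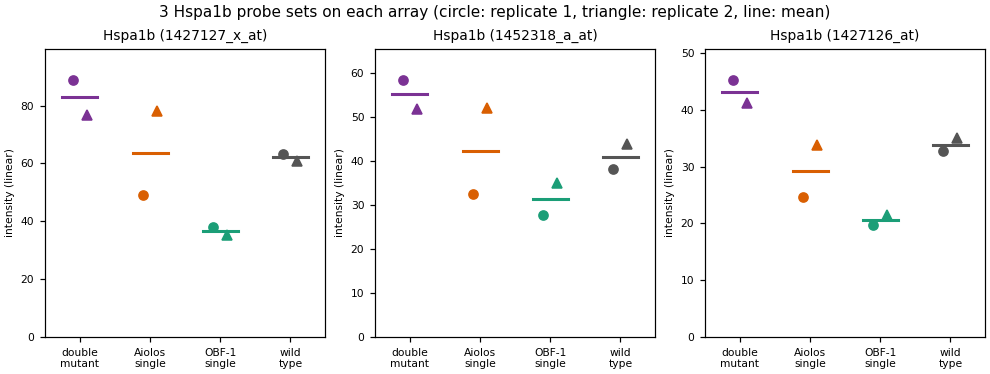
Intensity (linear RMA units, vertical axis from 0) of the 3 Hspa1b probe sets on each of the 8 arrays, by genotype; circles are replicate 1, triangles replicate 2 and lines the mean of 2 arrays. On 1427127_x_at the OBF-1 single-mutant arrays sit at 35.1 and 38.0, below all other arrays, and the double-mutant arrays at 76.7 and 88.9.

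Because Hspa1b was picked for the interaction, its differences from wild type and the interaction itself are given with no test. Against wild type, the log2 difference of 1427127_x_at was 0.41 ± 0.17 (SE) in double-mutant, 0.00 ± 0.17 in Aiolos single-mutant and -0.76 ± 0.17 in OBF-1 single-mutant cells. The matching values of 1427126_at were 0.35 ± 0.13, -0.23 ± 0.13 and -0.72 ± 0.13, and those of 1452318_a_at 0.43 ± 0.19, 0.01 ± 0.19 and -0.39 ± 0.19. The loss of OBF-1 thus went with a lower Hspa1b level where Aiolos was present and with a higher mean level, by 0.58, 0.42 and 0.42 (log2; 1427126_at, 1427127_x_at and 1452318_a_at), where Aiolos was absent. The interaction, which is the second of these differences minus the first, was 1.30 ± 0.19 on 1427126_at, 1.18 ± 0.24 on 1427127_x_at and 0.81 ± 0.26 on 1452318_a_at. Both differences in it lie within 1 fluidics station, but each runs across its modules. With any 1 array left out it ranged over 1.07 to 1.53, 0.85 to 1.51 and 0.47 to 1.15 on these Hspa1b probe sets.

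Only the average effects of each loss, which are at right angles to the interaction in this balanced design, were tested for Hspa1b. They share the error estimate of the interaction, so that the pick of Hspa1b may still bear on their p-values. The average effect of Aiolos loss was 0.59 ± 0.12, adjusted p = 0.015 (log2 ± SE; limma, Benjamini-Hochberg over all probe sets) on 1427127_x_at and 0.42 ± 0.094, adjusted p = 0.0236 on 1427126_at, both called higher at the threshold of 0.05, and 0.42 ± 0.13, adjusted p = 0.0928 on 1452318_a_at. The average joins 2 unlike differences, given with no test in the order 1427127_x_at, 1427126_at and 1452318_a_at. Where OBF-1 was present, Aiolos loss went with -0.003, -0.23 and 0.01. Where OBF-1 was absent, it went with 1.18, 1.07 and 0.82 (double mutant minus OBF-1 single mutant). The average effect of Aiolos loss runs across the fluidics stations. The call of 1427127_x_at was lost without double-mutant replicate 1 (0.0705), OBF-1 single-mutant replicate 2 (0.0582) or wild type replicate 2 (0.0553), with the adjusted p in parentheses, and that of 1427126_at without double-mutant replicate 1 (0.0932), Aiolos single-mutant replicate 2 (0.0616), OBF-1 single-mutant replicate 1 (0.077) or 2 (0.0519) or wild type replicate 1 (0.0862) or 2 (0.0552). The average effect of OBF-1 loss was -0.17 ± 0.12, adjusted p = 0.555, -0.07 ± 0.094, adjusted p = 0.811 and 0.01 ± 0.13, adjusted p = 0.98 on 1427127_x_at, 1427126_at and 1452318_a_at, none of them called. All 3 Hspa1b probe sets had a mean below the median intensity of the arrays, and the files used give no detection call.

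Hspa1a, the neighbouring copy, was read by 1452388_at, with 14.7 and 13.8 in double-mutant, 14.5 and 13.5 in Aiolos single-mutant, 12.8 and 14.0 in OBF-1 single-mutant and 13.4 and 13.4 in wild type cells. The groups overlapped, and the mean over the 8 arrays, 13.8, was at percentile 10.5 of all probe sets. The interaction was 0.03 ± 0.13, given with no test, and the average effects were 0.08 ± 0.066, adjusted p = 0.569 for Aiolos loss and 0.01 ± 0.066, adjusted p = 0.96 for OBF-1 loss. Signal from the 2 copies, at chr17:34956429-34959238 and chr17:34969359-34972156, may be split or shared between their probe sets, and the suffix x marks a probe set whose probes may also bind other transcripts.

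Hspa8, the constitutive HSP70 that carries out most folding in unstressed cells, fell in double-mutant and Aiolos single-mutant cells on 3 of its 4 probe sets and in OBF-1 single-mutant cells on 1 of them. Its 1455789_x_at had 1809.9 and 2002 in double-mutant, 1747 and 2061 in Aiolos single-mutant, 2382 and 2393 in OBF-1 single-mutant and 2902 and 2734 in wild type pre-BII cells. The highest double-mutant and Aiolos single-mutant arrays were below both OBF-1 single-mutant arrays, and these were below both wild type arrays. The log2 change was -0.57 ± 0.10, adjusted p = 0.00532 in double-mutant, -0.57 ± 0.10, adjusted p = 0.0223 in Aiolos single-mutant and -0.24 ± 0.10, adjusted p = 0.35 in OBF-1 single-mutant cells (log2 ± SE against wild type), the last not called. Its 1420622_a_at had 205 and 242 in double-mutant, 194 and 261 in Aiolos single-mutant, 295 and 248 in OBF-1 single-mutant and 344 and 391 in wild type cells. Both wild type arrays were above all mutant arrays. The change was -0.72 ± 0.15, adjusted p = 0.0101 in double-mutant and -0.70 ± 0.15, adjusted p = 0.038 in Aiolos single-mutant cells, both called, and -0.44 ± 0.15, adjusted p = 0.199 in OBF-1 single-mutant cells.

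The Hspa8 probe set 1431182_at had 46.8 and 46.1 in double-mutant, 34.2 and 58.3 in Aiolos single-mutant, 35.8 and 44.8 in OBF-1 single-mutant and 115 and 89.1 in wild type cells. Every mutant array was below both wild type arrays, the wide Aiolos single-mutant pair spanned the double-mutant pair and overlapped the OBF-1 single-mutant pair, and both double-mutant arrays were above both OBF-1 single-mutant arrays. It fell in all mutants, with a change of -1.12 ± 0.21 (adjusted p = 0.00519) in double-mutant, -1.18 ± 0.21 (adjusted p = 0.0183) in Aiolos single-mutant and -1.33 ± 0.21 (adjusted p = 0.00518) in OBF-1 single-mutant cells on the log2 scale. Its mean over the 8 arrays, 58.7, was below the median of the arrays. The brightest probe set, 1420623_x_at, had 1975 and 2607 in double-mutant, 2057 and 2482 in Aiolos single-mutant, 2593 and 2122 in OBF-1 single-mutant and 3283 and 2722 in wild type cells and passed no test, with -0.40 ± 0.15, adjusted p = 0.155, -0.40 ± 0.15, adjusted p = 0.193 and -0.35 ± 0.15, adjusted p = 0.357 in double-mutant, Aiolos single-mutant and OBF-1 single-mutant cells. The Hspa8 gene, at chr9:40801276-40805202, has related sequences elsewhere in the genome, so that the 4 probe sets need not read the same transcripts.

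Each Hspa8 call against wild type was lost without at least 1 of the arrays. That of 1455789_x_at in double-mutant cells was lost without double-mutant replicate 1 (0.0557) or wild type replicate 1 (0.052), and in Aiolos single-mutant cells without Aiolos single-mutant replicate 1 (0.185) or wild type replicate 1 (0.171) or 2 (0.0676), with the adjusted p in parentheses. For 1420622_a_at the call in double-mutant cells was lost without double-mutant replicate 1 (0.101) or wild type replicate 2 (0.0951) and in Aiolos single-mutant cells without Aiolos single-mutant replicate 1 (0.246) or wild type replicate 1 (0.142) or 2 (0.143). For 1431182_at it was lost without wild type replicate 1 (0.0637) in double-mutant, without Aiolos single-mutant replicate 1 (0.109) or wild type replicate 1 (0.174) in Aiolos single-mutant and without OBF-1 single-mutant replicate 1 (0.0547) or wild type replicate 1 (0.0803) in OBF-1 single-mutant cells.

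Hsph1, a large HSP70 relative that serves as a nucleotide exchange factor for HSP70, was lower in every mutant on its brighter probe set, by 1.88-fold in double-mutant, 2.0-fold in Aiolos single-mutant and 2.16-fold in OBF-1 single-mutant cells. Its 1425993_a_at had 212 and 307 in double-mutant, 182 and 317 in Aiolos single-mutant, 199.8 and 247 in OBF-1 single-mutant and 493 and 467 in wild type pre-BII cells. All 6 mutant arrays were below both wild type arrays, and the mutant genotypes overlapped one another. The mean intensity was 259 ± 67.5 in double-mutant, 249.6 ± 95.3 in Aiolos single-mutant, 223 ± 33.1 in OBF-1 single-mutant and 479.9 ± 18.8 in wild type cells (SD, n = 2 each). Against wild type the change was -0.91 ± 0.23, adjusted p = 0.0276, -1.0 ± 0.23, adjusted p = 0.0492 and -1.11 ± 0.23, adjusted p = 0.0253 (log2 ± SE) in double-mutant, Aiolos single-mutant and OBF-1 single-mutant cells.

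The dimmer Hsph1 probe set, 1423566_a_at, had 37.3 and 71.0 in double-mutant, 29.1 and 38.3 in Aiolos single-mutant, 33.7 and 32.6 in OBF-1 single-mutant and 85.5 and 61.4 in wild type cells. The second double-mutant array lay inside the wild type pair and the first among the single mutants. The change was called in Aiolos single-mutant (-1.12 ± 0.25, adjusted p = 0.0447) and OBF-1 single-mutant cells (-1.13 ± 0.25, adjusted p = 0.0373) but not in double-mutant cells (-0.49 ± 0.25, adjusted p = 0.281). Hsph1 lies at chr5:149616843-149636498. No Hsph1 call passed with each array left out in turn: on 1425993_a_at it was lost without double-mutant replicate 1 (0.227) or wild type replicate 1 (0.14) or 2 (0.111) in double-mutant, without Aiolos single-mutant replicate 1 (0.268), OBF-1 single-mutant replicate 1 (0.0637) or 2 (0.0637) or wild type replicate 1 (0.264) or 2 (0.127) in Aiolos single-mutant and without OBF-1 single-mutant replicate 1 (0.171) or 2 (0.0812) or wild type replicate 1 (0.175) or 2 (0.122) in OBF-1 single-mutant cells. On 1423566_a_at it was lost without Aiolos single-mutant replicate 1 (0.256) or 2 (0.0722), OBF-1 single-mutant replicate 1 (0.0657) or 2 (0.0657) or wild type replicate 1 (0.295) or 2 (0.0685) in Aiolos single-mutant and without OBF-1 single-mutant replicate 1 (0.144) or 2 (0.188) or wild type replicate 1 (0.301) or 2 (0.0683) in OBF-1 single-mutant cells. With the 2 Hsph1 probe sets averaged, the adjusted p in double-mutant cells was 0.0725.

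Dnajb1, the J domain protein that hands substrates to stress-induced HSP70 (chr8:83608175-83612653), passed no test. Its 1416755_at had 409 and 472 in double-mutant, 359.8 and 464 in Aiolos single-mutant, 404 and 438 in OBF-1 single-mutant and 492 and 462 in wild type cells. The first wild type array was the highest of all, and the second fell among the double-mutant and Aiolos single-mutant pairs. Its log2 differences from wild type were -0.12 ± 0.13, -0.22 ± 0.13 and -0.18 ± 0.13 in double-mutant, Aiolos single-mutant and OBF-1 single-mutant cells (adjusted p = 0.661, 0.359 and 0.596). On 1416756_at, with 312 and 312 in double-mutant, 283 and 312 in Aiolos single-mutant, 269 and 277 in OBF-1 single-mutant and 368 and 313 in wild type cells, the OBF-1 single-mutant arrays were lowest (-0.31 ± 0.10, adjusted p = 0.187).

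**Figure D2:**
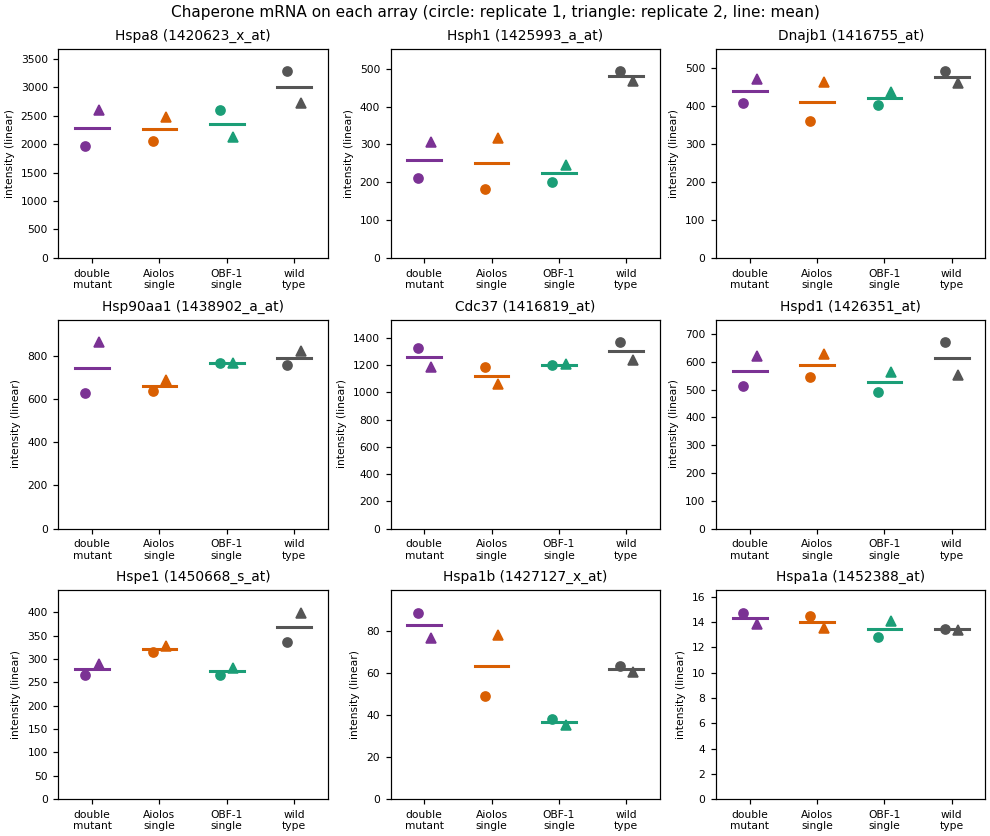
Intensity (linear RMA units, vertical axis from 0) of the brightest probe set of each of 9 chaperone genes on the 8 arrays, by genotype; circles are replicate 1, triangles replicate 2 and lines the mean of 2 arrays. Hsph1 has both wild type arrays (493 and 467) above the 6 mutant arrays, Hspa1b has both OBF-1 single-mutant arrays lowest, and in the other panels the genotypes lie closer together.

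Hsp90aa1, the inducible form of HSP90 (chr12:110691036-110696395), fell in Aiolos single-mutant cells on 1 of its 3 probe sets. This probe set, 1437497_a_at, had 254 and 309 in double-mutant, 208 and 244 in Aiolos single-mutant, 289 and 367 in OBF-1 single-mutant and 406 and 353 in wild type cells. Both Aiolos single-mutant arrays were below all other arrays, and the highest double-mutant array was inside the OBF-1 single-mutant pair and below both wild type arrays. The change was -0.75 ± 0.14, adjusted p = 0.0249 in Aiolos single-mutant cells, -0.43 ± 0.14, adjusted p = 0.0845 in double-mutant cells and -0.22 ± 0.14, adjusted p = 0.562 in OBF-1 single-mutant cells. Without Aiolos single-mutant replicate 1 (0.185) or wild type replicate 1 (0.202) or 2 (0.061) the call of Hsp90aa1 in Aiolos single-mutant cells was lost. On 1426645_at the intensities were 301 and 349 in double-mutant, 217 and 263 in Aiolos single-mutant, 341 and 234 in OBF-1 single-mutant and 366 and 322 in wild type cells, and the largest difference from wild type was -0.53 ± 0.16, adjusted p = 0.122 in Aiolos single-mutant cells. The brightest Hsp90aa1 probe set, 1438902_a_at, had 628 and 866 in double-mutant, 637 and 689.5 in Aiolos single-mutant, 769.9 and 767 in OBF-1 single-mutant and 758 and 824 in wild type cells, with overlap of the double-mutant and wild type pairs and no call.

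Cdc37, which brings kinases to HSP90 (chr9:21139431-21149934), had 1330.0 and 1186 in double-mutant, 1185 and 1059 in Aiolos single-mutant, 1198 and 1210.0 in OBF-1 single-mutant and 1371 and 1239.5 in wild type cells on 1416819_at. All 4 genotypes lay within 1059 to 1371 units, and the double-mutant pair overlapped the wild type pair. The differences from wild type were -0.05 ± 0.10, adjusted p = 0.832 in double-mutant, -0.22 ± 0.10, adjusted p = 0.276 in Aiolos single-mutant and -0.11 ± 0.10, adjusted p = 0.692 in OBF-1 single-mutant cells. The second Cdc37 probe set, 1416820_at, ranged from 41.4 to 48.9 over the 8 arrays and passed no test.

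Hspe1, the HSP10 lid of the mitochondrial folding chamber (chr1:55088148-55091317), fell in double-mutant cells on 1 of its 2 probe sets. On 1450668_s_at it had 265 and 289 in double-mutant, 314 and 327 in Aiolos single-mutant, 266 and 281 in OBF-1 single-mutant and 336 and 399 in wild type cells. Both wild type arrays were above all mutant arrays, and the Aiolos single-mutant pair was above the double-mutant and OBF-1 single-mutant pairs. The change was -0.40 ± 0.10, adjusted p = 0.0347 in double-mutant, -0.19 ± 0.10, adjusted p = 0.343 in Aiolos single-mutant and -0.42 ± 0.10, adjusted p = 0.0722 in OBF-1 single-mutant cells. On 1422579_at Hspe1 had 197 and 240.2 in double-mutant, 220.1 and 219 in Aiolos single-mutant, 192 and 205 in OBF-1 single-mutant and 263 and 257 in wild type cells, again with the wild type pair on top but no call, at -0.25 ± 0.11, adjusted p = 0.184 in double-mutant, -0.24 ± 0.11, adjusted p = 0.246 in Aiolos single-mutant and -0.39 ± 0.11, adjusted p = 0.101 in OBF-1 single-mutant cells. The call of 1450668_s_at in double-mutant cells was lost without double-mutant replicate 1 (0.198) or 2 (0.0585), Aiolos single-mutant replicate 1 (0.0512) or 2 (0.0512) or wild type replicate 2 (0.245).

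Hspd1, the HSP60 that forms the chamber itself and shares its promoter region with Hspe1 (chr1:55077833-55088243), had 513 and 619.7 in double-mutant, 545 and 629 in Aiolos single-mutant, 491 and 563 in OBF-1 single-mutant and 671 and 554 in wild type cells. The pairs overlapped, apart from a first wild type array at 671. The differences from wild type were -0.11 ± 0.13, adjusted p = 0.696, -0.06 ± 0.13, adjusted p = 0.842 and -0.21 ± 0.13, adjusted p = 0.537 in double-mutant, Aiolos single-mutant and OBF-1 single-mutant cells, none of them called.

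Read by comparison, over the 16 probe sets of the 7 genes that could be tested against wild type, the called probe sets were all lower in mutant cells. In double-mutant cells 5 of 16 were lower (3 of Hspa8, 1 of Hsph1 and 1 of Hspe1) and 0 higher, where 4.28% of all probe sets were called lower and 4.29% higher; the median log2 change was -0.33, against 0.01 over all probe sets, and 16 of 16 values were below 0, against 47.9% of all probe sets. In Aiolos single-mutant cells 6 of 16 were lower (3 of Hspa8, 2 of Hsph1 and 1 of Hsp90aa1) and 0 higher, where 1.01% of all probe sets were called lower and 0.831% higher; the median was -0.33, against 0.03, with 16 of 16 below 0, against 42.7%. In OBF-1 single-mutant cells 3 of 16 were lower (1 of Hspa8 and 2 of Hsph1) and 0 higher, where 1.14% of all probe sets were called lower and 0.946% higher; the median was -0.30, against 0.02, with 16 of 16 below 0, against 44.3%. Most of the chaperone probe sets were bright, 13 of the 16 with a mean intensity of at least 100, and of the 9299 probe sets that bright 50.01% were below 0 in double-mutant, 58.3% in Aiolos single-mutant and 53.7% in OBF-1 single-mutant cells, with medians of 0.00, -0.04 and -0.01. The untested Hspa1b and Hspa1a probe sets are left out of these counts. With them, 16 of 20 were below 0 in double-mutant, 18 of 20 in Aiolos single-mutant and 20 of 20 in OBF-1 single-mutant cells. The medians were then -0.12, -0.24 and -0.33 in the same order. Several probe sets read the same gene, so that these counts are not of separate genes. All 3 comparisons use the same 2 wild type arrays, whose deviations enter each of them. None of the calls passed in a fit without moderated variances, which uses 4 residual degrees of freedom.

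**Figure D3:**
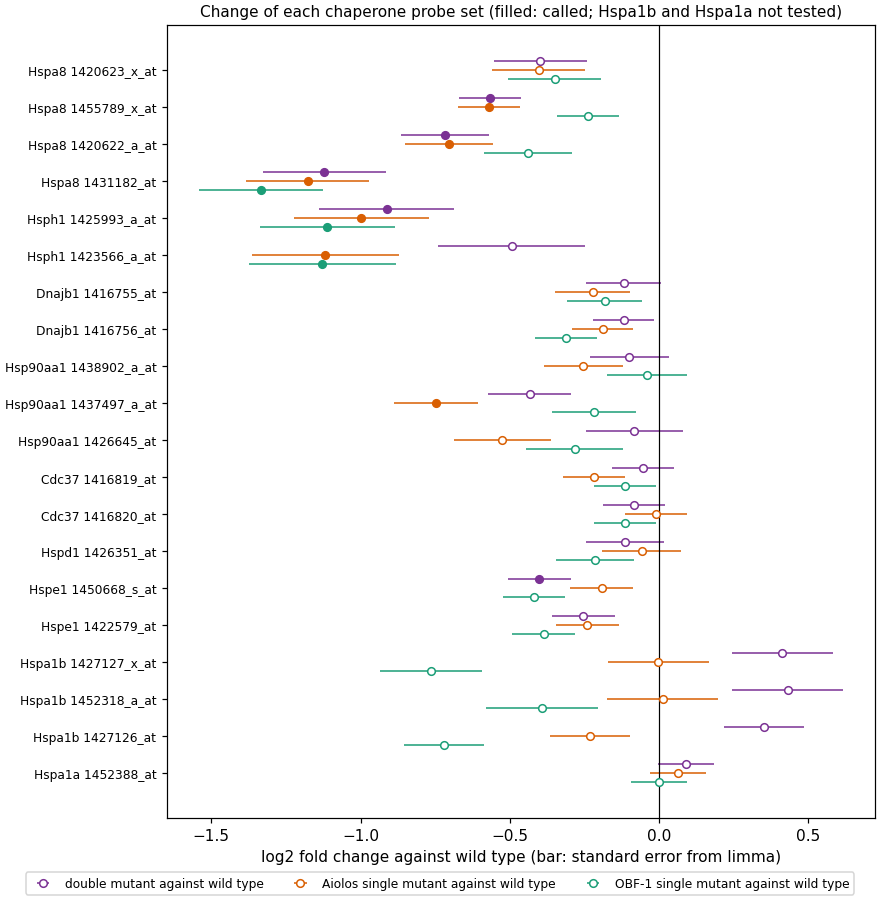
Log2 fold change against wild type (horizontal axis; bars are the standard error from limma) of each of the 20 chaperone probe sets in double-mutant, Aiolos single-mutant and OBF-1 single-mutant cells; filled points passed the adjusted p threshold of 0.05, and Hspa1b and Hspa1a were not tested. The Hspa8 and Hsph1 points lie farthest below 0, down to -1.33, and the 3 double-mutant points of Hspa1b lie above 0.

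The average effect of OBF-1 loss averaged OBF-1 single mutant against wild type and double mutant against Aiolos single mutant. It is measured within fluidics stations but across their modules, and module and OBF-1 loss cannot be told apart in it. Of all 20 probe sets 2 were lower and 0 higher, where 2.29% of all probe sets were called lower and 2.72% higher. They were Hspa8 1431182_at (-0.64 ± 0.15, adjusted p = 0.0258) and Hspe1 1450668_s_at (-0.31 ± 0.074, adjusted p = 0.0308). The Hspa8 call was lost without double-mutant replicate 1 (0.0769) or 2 (0.0816), Aiolos single-mutant replicate 2 (0.0552), OBF-1 single-mutant replicate 1 (0.103) or wild type replicate 1 (0.107), and the Hspe1 call without double-mutant replicate 1 (0.101), Aiolos single-mutant replicate 1 (0.0707) or 2 (0.116), OBF-1 single-mutant replicate 1 (0.104) or 2 (0.0631) or wild type replicate 2 (0.127). Over the 20 probe sets the median was -0.12 and 14 were below 0, where 50.5% of all probe sets were. Immediate early genes, which respond to stress and signals within minutes, moved with OBF-1 loss too: 5 of 15 were lower and 0 higher, and their summed intensity was 8720 to 9296 in double-mutant, 9764 to 11873 in Aiolos single-mutant, 8440 to 9240 in OBF-1 single-mutant and 10047 to 13096 in wild type cells; their part in the chaperone values was not tested.

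The average effect of Aiolos loss set 3 probe sets lower and 2 higher out of 20, where 3.27% of all probe sets were called lower and 2.89% higher. The lower ones were Hspa8 1455789_x_at (-0.45 ± 0.074, adjusted p = 0.00443), Hspa8 1420622_a_at (-0.49 ± 0.10, adjusted p = 0.0178) and Hsp90aa1 1437497_a_at (-0.48 ± 0.10, adjusted p = 0.0156). The higher ones were the 2 Hspa1b probe sets given above, and no other member was called higher. Hspa1b was picked on these arrays, so the higher count cannot be read against the share of all probe sets. The call of Hspa8 1455789_x_at passed with any 1 of the 8 arrays left out, with an adjusted p of 0.00473 to 0.0246. Those of Hspa8 1420622_a_at and Hsp90aa1 1437497_a_at did not: the first was lost without double-mutant replicate 1 (0.0791), Aiolos single-mutant replicate 1 (0.0666), OBF-1 single-mutant replicate 1 (0.066) or wild type replicate 2 (0.0696), and the second without double-mutant replicate 1 (0.0698), Aiolos single-mutant replicate 1 (0.0695), OBF-1 single-mutant replicate 2 (0.0607) or wild type replicate 1 (0.0686). Station and Aiolos loss cannot be told apart in this comparison. Cycling cell genes moved with it too: 11 of 18 measured were lower and 0 higher, and their summed intensity was 5979 to 6775 in double-mutant, 6389 to 6411 in Aiolos single-mutant, 7472 to 7897 in OBF-1 single-mutant and 7352 to 7361 in wild type cells; their part in the chaperone values was not tested.

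The interaction of the losses was above 0 for all 16 tested probe sets, with none called and 7 at an unadjusted p under 0.05, where 0.186% of all probe sets were called in either direction and 11.8% had an unadjusted p under 0.05. A value above 0 means that the double-mutant level was higher than the single-mutant changes add up to. The median was 0.36, within 0.04 to 1.75, against -0.03 over all probe sets, of which 43.7% were above 0. The highest values were those of Hsph1 1423566_a_at (1.75 ± 0.35, adjusted p = 0.101), Hspa8 1431182_at (1.39 ± 0.29, adjusted p = 0.132) and Hsph1 1425993_a_at (1.2 ± 0.32, adjusted p = 0.247). Hsp90aa1 1426645_at followed with 0.72 ± 0.23, adjusted p = 0.308. Hsph1 1423566_a_at and Hspa8 1431182_at were dim, with mean intensities of 48.6 and 58.7. The other Hspa8 probe sets, all brighter, had 0.42, 0.36 and 0.24 (1420622_a_at, 1420623_x_at and 1455789_x_at). Among the 9299 probe sets with a mean intensity of at least 100, 61.0% were above 0, with a median of 0.05, so that bright probe sets leaned the same way as the chaperones. The wild type arrays enter the interaction with a positive sign, and the same 2 arrays enter it for every probe set. The set was drawn up around Hspa1b, which was picked for this same contrast on these arrays. The counts and shares above are therefore a description and not a test of the set.

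**Figure D4:**
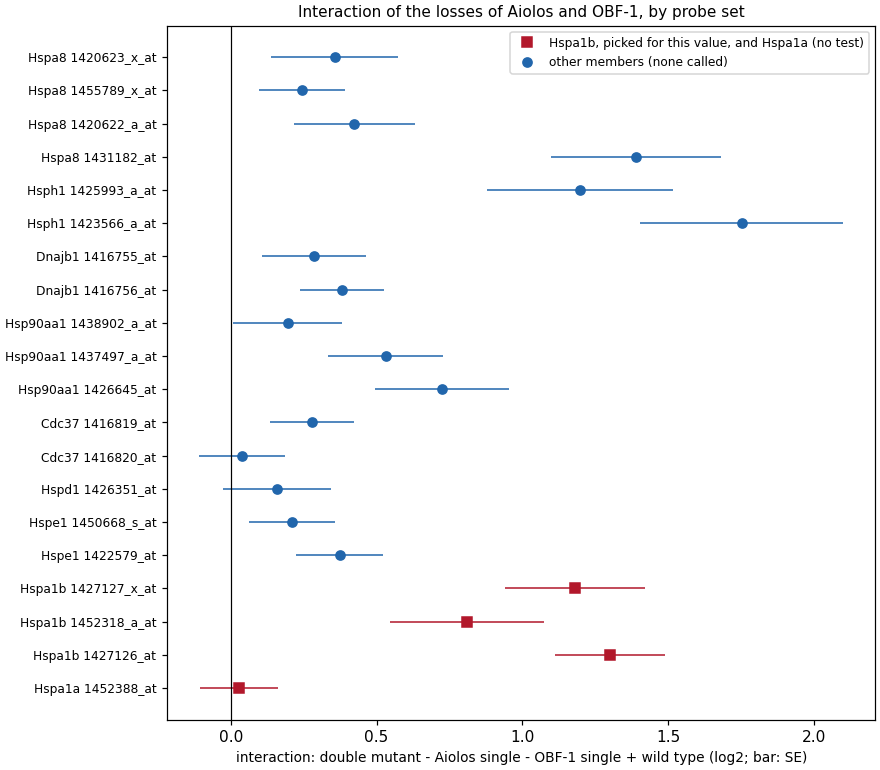
Interaction of the losses (log2, horizontal axis: double mutant minus both single mutants plus wild type; bars are the standard error from limma) of the 20 chaperone probe sets; squares are Hspa1b, which was picked for this value, and Hspa1a, both without a test, and circles the other members, none of them called. The values run up to 1.75 for Hsph1 1423566_a_at, and those of Hspa1b are 1.18, 0.81 and 1.30.

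Chaperone levels also differed between the 2 arrays of a genotype. In the Aiolos single mutant 16 of 20 probe sets were higher on replicate 2, with a median log2 difference of 0.25 where that of all probe sets was 0.00, and in the double mutant 13 of 20 were, with a median of 0.18 against -0.03. In the OBF-1 single mutant 14 of 20 were higher on replicate 2 (median 0.06), and in wild type cells 6 of 20 (median -0.08). Differences of up to 0.93, for Hsph1 in double-mutant cells, and 0.80 in Aiolos single-mutant cells were thus seen between samples of 1 genotype.

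Of the wider chaperone network, 78 of 88 listed genes outside the 10 were measured, each by its brightest probe set. In double-mutant cells 7 were lower and 2 higher, where 4.28% of all probe sets were lower and 4.29% higher, with a median log2 change of -0.06 against 0.01 over all probe sets. In Aiolos single-mutant cells 3 were lower and 0 higher (1.01% and 0.831% of all probe sets; median -0.07 against 0.03), and in OBF-1 single-mutant cells 2 were lower and 0 higher (1.14% and 0.946%; median -0.10 against 0.02). None was called for the interaction, whose median was 0.10 against -0.03. The genes lower in double-mutant cells were Hspa2, Hspa12b, Bag1, Dnajc15, Pfdn1, Pfdn5 and Pfdn6, and those higher were Hspa4l and Dnajc12. The lists had been drawn up with earlier results of these data known.

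In the HSP70 family and its partners 16 of 18 genes were measured. Hspa2, an HSP70 best known from the testis, had 177 and 223 in double-mutant, 239 and 255 in Aiolos single-mutant, 258 and 243 in OBF-1 single-mutant and 346 and 360.0 in wild type cells, with every mutant array below both wild type arrays. It fell in double-mutant (-0.83, adjusted p = 0.000725), Aiolos single-mutant (-0.52, adjusted p = 0.0442) and OBF-1 single-mutant cells (-0.50, adjusted p = 0.0475); with 1 array left out the adjusted p of Hspa2 reached 0.0112, 0.239 and 0.243 in these comparisons. St13, the cochaperone Hip that steadies HSP70 on its substrate, had 285 and 335 in double-mutant, 281 and 289.6 in Aiolos single-mutant, 276 and 266 in OBF-1 single-mutant and 421 and 376 in wild type cells. It was called lower in Aiolos single-mutant (-0.48, adjusted p = 0.0434) and OBF-1 single-mutant cells (-0.55, adjusted p = 0.017), at up to 0.275 and 0.163 with 1 array left out. Hspa4l, like Hsph1 a relative of the exchange factors, was higher as an average effect of OBF-1 loss (0.35, adjusted p = 0.00734), with 113 and 122 in double-mutant, 83.3 and 88.9 in Aiolos single-mutant, 114 and 108 in OBF-1 single-mutant and 94.5 and 91.0 in wild type cells.

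Among 17 of 19 J domain proteins, Dnajc15 was lower (-0.52, adjusted p = 0.00528) and Dnajc12 higher (0.45, adjusted p = 0.0385) in double-mutant cells, and none was called in either single mutant. With 1 array left out, the adjusted p reached 0.0527 for Dnajc15 and 0.263 for Dnajc12. The TRiC chaperonin and prefoldin, which fold actin and tubulin, had 14 of 15 genes measured, and their calls were all in prefoldin subunits or Vbp1, itself a prefoldin subunit: Pfdn1, Pfdn5 and Pfdn6 were lower in double-mutant cells, and Pfdn1 in Aiolos single-mutant cells (-0.69, adjusted p = 0.0242, up to 0.176 with 1 array left out). Pfdn1 had 55.6 and 66.97 in double-mutant, 60.4 and 49.4 in Aiolos single-mutant, 77.5 and 65.9 in OBF-1 single-mutant and 90.5 and 85.8 in wild type cells. The HSP90 cochaperones (10 of 13 measured), the small heat shock proteins and heat shock factors (12 of 14, Hsf1 not among them) and the mitochondrial chaperones and proteases (11 of 11) held no call in any of the 6 comparisons.

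Of 5959 genes with a mean intensity of at least 100, those whose intensities followed Hspa1b 1427127_x_at most closely over the 8 arrays were Vps54 (Pearson r = 0.970), Scaf8 (0.933), Nrd1 (0.924), Hivep2 (0.920) and Ivd (0.917). Vps54, a subunit of a complex that tethers vesicles at the Golgi, had 523 and 504 in double-mutant, 452 and 504 in Aiolos single-mutant, 432 and 427 in OBF-1 single-mutant and 503 and 465 in wild type cells, a narrower range than that of Hspa1b. The other chaperones followed Hspa1b less closely, from -0.30 for Hspa8 1455789_x_at to 0.66 for Dnajb1 1416756_at. These values describe 8 arrays that share their 4 genotypes, and the genes were searched for this likeness.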

How the data were processed

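RNA of 8 MOE430A GeneChips, 2 per genotype, was used. The authors deposited linear intensity values, processed with RMA per the labels (background correction, quantile normalization and a summary over probes; version not given in the sources used here), although Affymetrix Microarray suite 5 and GeneSpring 5 are the tools in the study's methods. Their log2 was taken. Of 22690 probe sets, 64 controls were left out. A platform table gave 20380 of the 22626 tested probe sets 1 symbol, 691 several and 1555 none, and 20351 were matched to RefSeq gene names. Genes with several probe sets are given by each of them, the one with the highest mean log2 value first, and other lists by that probe set alone.

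The labels describe bone marrow and the methods sorted pre-BII pools; the methods were followed, and p-values measure only the spread between samples, which the labels give as single mice for the mutants. limma 3.58.1 in R 4.3.3 fitted 1 mean per genotype over all 8 arrays (4 residual degrees of freedom, 7.69 added by moderation), with Benjamini-Hochberg adjustment over all probe sets and a call at an adjusted p of 0.05. 6 comparisons were made, and the fit was tested on simulated data. The number of arrays limits the precision. The chaperones and the gene lists were chosen with earlier results of these data known. All listed genes are named; of other lists, up to 4 genes with the smallest p in any comparison among those called, others only beside a count of calls, after their values were seen. Alternatives were quantile normalization, centring on the array median, an intensity floor of 100, a pseudocount of 16, no moderation, a trend with robust prior, a replicate block, fits of the compared genotypes only and leaving out each array.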

Additional observations from a re-analysis of the deposited data

Results flagged for a closer look

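On Hspa1b 1427126_at the loss of OBF-1 went in opposite directions with and without Aiolos: both double-mutant arrays (45.3 and 41.1) were above both Aiolos single-mutant arrays (24.7 and 33.8), while both OBF-1 single-mutant arrays (19.7 and 21.4) were below both wild type arrays (32.8 and 35.0). The difference between the 2 effects was 1.3 on the log2 scale. It was not tested, because Hspa1b was picked for it.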

How the results depend on the processing

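Of the 21 calls of chaperone probe sets, 1 passed with any 1 array left out, 0 passed under all the other alternatives and 0 changed sign. Without moderated variances 0 probe sets were called in each comparison with wild type and for both average effects, and over all probe sets 359 were called in double-mutant, 6 in Aiolos single-mutant and 9 in OBF-1 single-mutant cells, 37 for Aiolos loss, 137 for OBF-1 loss and 0 for the interaction, instead of 1938, 417, 472, 1396, 1135 and 42. With a pseudocount 1 chaperone probe set was called in Aiolos single-mutant cells, 1 in OBF-1 single-mutant cells and 1 for OBF-1 loss, and 20 of all probe sets for the interaction. A trend with robust prior left 1 for OBF-1 loss. The intensity floor left 3 for Aiolos loss, since it drops Hspa1b. With only the compared genotypes in the fit 2 were called in Aiolos single-mutant cells, and 251 of all probe sets. Otherwise the cause was not tested.

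With 1 array left out, chaperone calls ranged over 1 to 5 in double-mutant, 0 to 6 in Aiolos single-mutant and 0 to 3 in OBF-1 single-mutant cells, 0 to 3 for OBF-1 loss, 1 to 6 for Aiolos loss and 0 to 2 for the interaction. The lowest counts came without double-mutant replicate 1 for the double mutant (1) and Aiolos loss (1), and without Aiolos single-mutant replicate 1 or wild type replicate 1 for the Aiolos single mutant (0 each). The interaction had 2 calls without Aiolos single-mutant replicate 2 and 1 without double-mutant replicate 1. Over all probe sets the ranges were 988 to 1888, 55 to 481, 182 to 478, 722 to 907, 628 to 1391 and 10 to 37 in the same order.

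Centring the arrays shifted the median of all probe sets by at most 0.04 and gave the same chaperone counts, but split the calls in Aiolos single-mutant cells into 136 higher and 307 lower, instead of 188 and 229, and those for Aiolos loss into 519 and 903, instead of 655 and 741. Arrays with the same replicate number had correlations of deviations of -0.0659 to 0.187, which neither show a pairing nor exclude one. The actin and Gapdh 3′ to 5′ ratios were higher on replicate 2 in every genotype. For actin they were 1.81 and 1.94 in double-mutant, 2.02 and 2.06 in Aiolos single-mutant, 1.79 and 2.14 in OBF-1 single-mutant and 1.71 and 2.14 in wild type cells. With the replicate number as a block 5 chaperone probe sets were called in double-mutant, 6 in Aiolos single-mutant and 4 in OBF-1 single-mutant cells, 3 for OBF-1 loss, 6 for Aiolos loss and 0 for the interaction. The 3 Hspa1b probe sets and Hspa1a were below the median intensity, and the smallest difference that 2 arrays per genotype can show was not computed.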
